A study of Homo sapiens with 9 samples.

Results

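The 10 genes described here belong to the BCL2 family or bind it: the BH3-only genes BCL2L11 (BIM), BBC3 (PUMA), PMAIP1 (NOXA), BID and BIK, the effectors BAX and BAK1, and the pro-survival genes BCL2, BCL2L1 (BCL-XL) and MCL1. They were taken by name, matched through their Ensembl identifiers, and all 10 were found among the 19869 genes of the table of H460-ERT2-RUNX3-K94/171R cells. H460 is a line from a large cell lung cancer with oncogenic K-RAS, wild-type ARF and inactivated RUNX3. The K94/171R line was made by stable transfection and carries ERT2 fused with a RUNX3 mutant that does not interact with BRD2; whether it is a single clone is not given in the sources used here. Serum was withheld for 24 h, and cells were harvested then (0 h, labelled control) or after 8 h or 16 h in 10% serum with 1 μM 4-OHT (labelled TAM), which brings ERT2 fusion proteins into the nucleus. Each time is 1 library, so no value here has a replicate error and no test was made. Serum, 4-OHT and time changed together in these 3 libraries and cannot be told apart.

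BCL2 family proteins decide whether the outer mitochondrial membrane stays intact. BAX and BAK1 form pores in it and let cytochrome c out, BCL2, BCL2L1 and MCL1 hold BAX and BAK1 in check, and the BH3-only proteins bind the pro-survival members or activate BAX and BAK1 directly. BBC3 and PMAIP1 are known to be induced by cell stress, and BCL2L11 is known as a gene that FOXO factors induce when growth factors are withdrawn.

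The values are FPKM, a fragment count scaled by transcript length and library size, so levels can be set beside each other between genes. FPKM over all genes summed to 603652, 588309 and 566164 in order of time, and the number of reads is unknown. From the most frequent ratio among low genes, the 8 h library had a relative depth of 1.00 and the 16 h library of 0.986 when the starved library is set to 1. That ratio was held by 56 of 1154 low genes at 8 h and 70 of 1106 at 16 h, so these depths are rough estimates. KRT8, KRT18 and KRT19, keratins of epithelial cells, lay at FPKM 309 to 698, whereas the epithelial adhesion genes EPCAM and CDH1 did not exceed 0.313. Of the 4 blood cell markers, 3 were listed at 0 in all libraries and PTPRC did not exceed 0.0155. Of the 4 stroma and vessel markers found, PDGFRB alone reached FPKM 1, and their summed FPKM was 2.18 to 3.46. RUNX3 itself stood at FPKM 2.12, 0.712 and 2.11 at 0, 8 and 16 h, and the table does not separate the transgene from the endogenous gene.

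The family spanned a wide range of levels in starved cells. BAX at FPKM 159 and MCL1 at 105 were far above all other members. BCL2L1 followed at 18.3, then BAK1 at 9.88, BID at 8.98, PMAIP1 at 8.45 and BCL2 at 8.14. BBC3 at 3.60 and BCL2L11 at 3.25 were the lowest members above 0, and BIK was listed at 0. BAX and MCL1 stayed the highest pair and BIK stayed at 0 in every library. Without replicates, the order among BAK1, BID, PMAIP1 and BCL2, or between BBC3 and BCL2L11, cannot be judged.

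**Figure D1:**
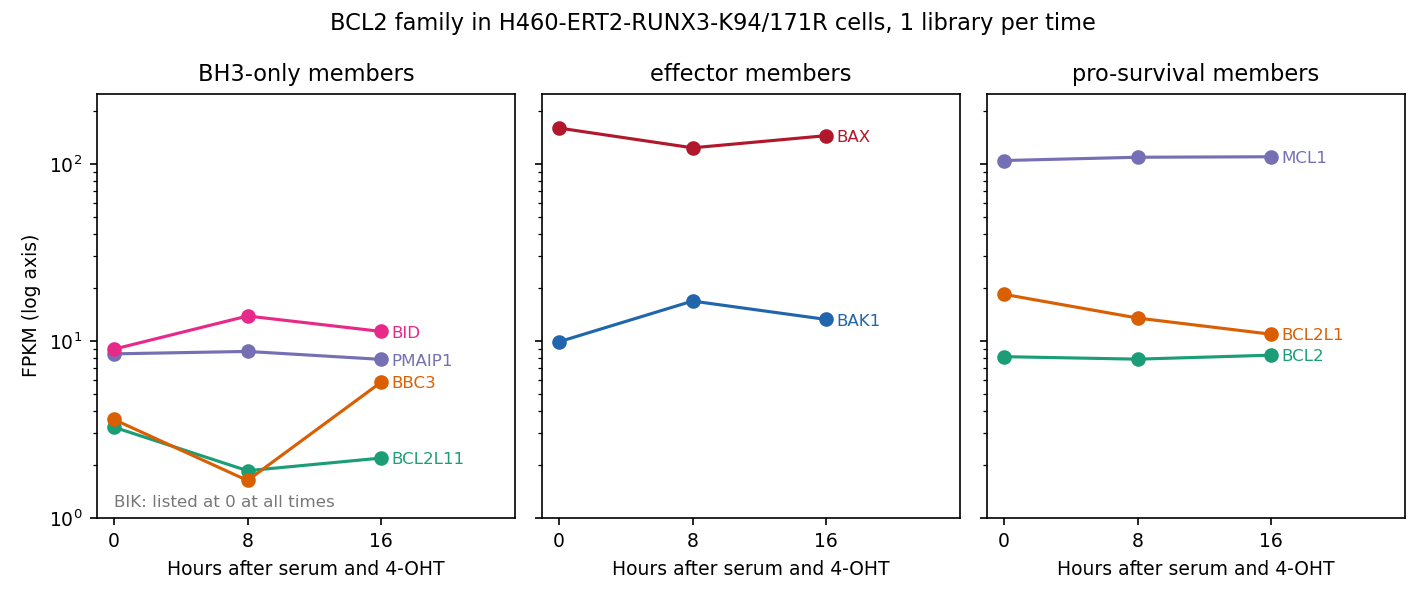
FPKM on a log axis against hours after serum and 4-OHT in K94/171R cells, 1 point per library, with the BH3-only, effector and pro-survival members in separate panels. BAX and MCL1 lie above FPKM 100 throughout, BBC3 dips to 1.63 at 8 h and reaches 5.84 at 16 h, and BIK, listed at 0, cannot be drawn on this axis.

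A change below is log2 of FPKM at the later time over FPKM at the earlier time, after 0.05 was added to each, which understates changes of genes with low FPKM. No member changed by 2 or more in either direction at 8 h or 16 h. Over all genes 0.493% were higher and 0.997% lower by at least 2 at 8 h, and 0.554% and 0.765% at 16 h. With a threshold of 1, 1 of the 10 members, BBC3, was lower at 8 h, and 0 were higher. The shares of all genes were 4.53% lower and 2.77% higher at that time, or 2.49% and 1.27% of genes that reached FPKM 1 in either library. At 16 h against 0 h, 0 members passed 1 in either direction, beside 3.11% of all genes higher and 3.36% lower, or 1.47% and 1.27% with the FPKM minimum. From 8 h to 16 h, 1 member, again BBC3, was higher by at least 1, beside 2.66% of genes above the FPKM minimum, and 0 were lower, beside 1.53%. Over genes with the FPKM minimum, the 5th and 95th percentiles of the change were -0.75 and 0.64 at 8 h and -0.53 and 0.59 at 16 h. BCL2L11, BBC3 and BAK1 lay outside this range at 8 h, and BCL2L11, BBC3 and BCL2L1 at 16 h. Counts of 0 or 1 among 10 members are too small to read against these shares.

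**Figure D2:**
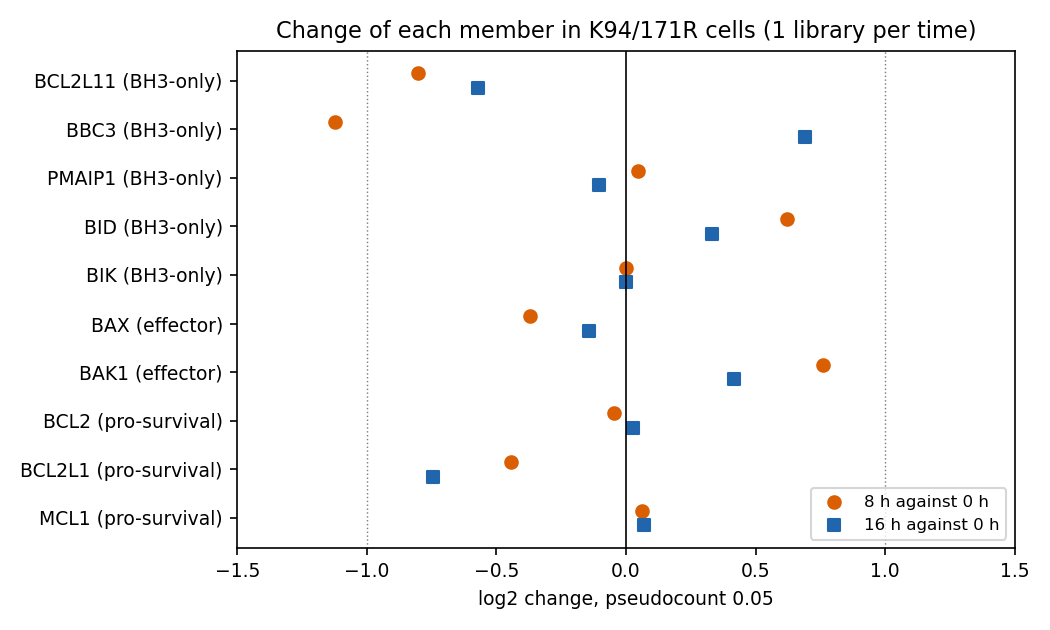
log2 change of each of the 10 members at 8 h (circles) and 16 h (squares) against 0 h in K94/171R cells, with dotted lines at -1 and 1. BBC3 lies at -1.12 at 8 h and at 0.69 at 16 h, and all other points lie within 1 of 0.

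Among the BH3-only genes, BBC3 had the widest course. BBC3 (ENSG00000105327, chromosome 19, 47724079 to 47736023, GRCh37) encodes PUMA, which binds every main pro-survival protein. Its FPKM was 3.60, 1.63 and 5.84 at 0, 8 and 16 h. The lowest value was thus at 8 h and the highest at 16 h, with changes of -1.12 at 8 h and 0.69 at 16 h against 0 h and of 1.81 from 8 h to 16 h. Of 3709 genes whose highest FPKM lay within 2-fold of that of BBC3, 1.89% were as far down at 8 h, 3.42% as far up at 16 h and 0.404% as far up from 8 h to 16 h. A pseudocount of 1 gave -0.81 at 8 h, which does not reach 1 in size.

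BCL2L11 (ENSG00000153094, chromosome 2, 111876955 to 111926021) encodes BIM, which binds all pro-survival members and can activate BAX and BAK1. Its FPKM was 3.25, 1.85 and 2.18 at 0, 8 and 16 h, so both libraries after serum lay below the starved one, with changes of -0.80 and -0.57. At its level, 8.40% of 2631 genes were as far down at 8 h and 6.96% at 16 h. BCL2L11 and BBC3 were therefore both lower at 8 h, but at 16 h BCL2L11 was below and BBC3 above its level at 0 h. FOXO3, a transcription factor known to induce BCL2L11, was listed at FPKM 1.94, 0.862 and 1.94, a change of -1.13 at 8 h and of 0.00 at 16 h. FOXO1, another FOXO factor, was at FPKM 4.16, 3.77 and 3.42, with changes of -0.14 and -0.28. A link of either gene to BCL2L11 was not tested.

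BID (ENSG00000015475, chromosome 22, 18216904 to 18257536), which links death receptors to mitochondria once caspase-8 has cut it, was at FPKM 8.98, 13.8 and 11.3. It was highest at 8 h, with changes of 0.62 and 0.33, and 5.41% of 4674 genes of its level were as far up at 8 h. PMAIP1 (ENSG00000141682, chromosome 18, 57567228 to 57571537) encodes NOXA, which binds MCL1 in particular. Its FPKM was 8.45, 8.72 and 7.86, and its changes were 0.05 and -0.10. BIK (ENSG00000100290, chromosome 22, 43506756 to 43525718), a BH3-only gene of the endoplasmic reticulum, was listed at 0 in all 3 libraries. Since depth is unknown, this gives no limit on its level.

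The effectors differed from each other. BAX (ENSG00000087088, chromosome 19, 49458072 to 49465055) was at FPKM 159, 123 and 144, lower after serum by 0.37 and 0.14 on the log2 scale. BAK1 (ENSG00000030110, chromosome 6, 33540324 to 33548070) was at 9.88, 16.8 and 13.2, with changes of 0.76 and 0.42. It was the member highest above its starved level at 8 h, and 2.42% of 4619 genes of its level were as far up. The ratio of BAX to BAK1 FPKM went from 16.1 to 7.34 and back to 10.9.

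Of the pro-survival genes, BCL2L1 had the largest changes at 8 h and 16 h. BCL2L1 (ENSG00000171552, chromosome 20, 30252255 to 30311792) was at FPKM 18.3, 13.5 and 10.9, lower in each later library. Its changes were -0.44 at 8 h and -0.75 at 16 h, and 1.23% of 4554 genes of its level were as far down at 16 h. In size its change at 16 h was the largest of all members, ahead of 0.69 for BBC3, but with equal FPKM sums this order turned, with -0.65 for BCL2L1 and 0.78 for BBC3. MCL1 (ENSG00000143384, chromosome 1, 150533371 to 150552214), whose protein is short-lived, was at 105, 109 and 110 (changes of 0.06 and 0.07). BCL2 (ENSG00000171791, chromosome 18, 60790579 to 60987361) was at 8.14, 7.88 and 8.30 (changes of -0.05 and 0.03). The ratio of MCL1 to BCL2L1 FPKM went from 5.70 to 8.10 and 10.1 over the course. FPKM per gene does not separate the long and short splice forms of BCL2L1 or MCL1, which act in opposite directions.

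Some members share their locus with other genes. On the opposite strand, the annotation places MIR4435-2HG over BCL2L11, BCL2L1-AS1 and ABALON over BCL2L1, and ADAMTSL4 over MCL1. On the same strand, where stranded counting would not separate them, it places MIR3198-1 in BID, snoU13 and an unnamed lncRNA in BCL2, and ADAMTSL4-AS1, RN7SL473P and RN7SL600P at MCL1. The library kit marks strand, but whether counting used it is not given in the sources used here, and the part of these neighbours in the FPKM values was not tested.

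The pro-death members as a group (5 BH3-only genes and 2 effectors) were compared with the 3 pro-survival members. Summed pro-death FPKM was 194, 166 and 185 at 0, 8 and 16 h, and summed pro-survival FPKM was 131, 130.4 and 129. The ratio of these sums was 1.48, 1.27 and 1.43, a log2 change of -0.22 and -0.04. These sums are mostly 2 genes, since BAX held 82.4% of the pro-death and MCL1 79.8% of the pro-survival FPKM at 0 h. Without BAX and MCL1 the ratio went the other way, from 1.29 to 2.01 and 2.10, a log2 change of 0.64 and 0.71. The ratio of geometric means was 0.198, 0.2003 and 0.244. These means were taken after 0.05 was added to each value, so BIK, listed at 0, entered the pro-death mean as 0.05. The size of this ratio therefore depends on BIK, and a ratio without BIK was not computed. The direction of the pro-death to pro-survival RNA ratio thus depended on how members of such unequal level were weighted. Protein was not measured here, so these ratios do not give the balance of the proteins.

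Within classes the members did not move together. The median change was 0 at both times for the BH3-only genes, which is the value of BIK, with 2 members higher and 2 lower at 8 h. It was 0.20 and 0.14 for the effectors and -0.05 and 0.03 for the pro-survival genes, beside 0.0048 and -0.011 over all 11390 genes with FPKM of at least 1. Summed FPKM of the BH3-only genes was 24.3, 26.0 and 27.2, of which BID held 37.0%, 53.1% and 41.6%. Pairs of members differed in how far their ratio moved. The ratio of BBC3 to BCL2L1 FPKM was 0.196, 0.121 and 0.536, and that of BAK1 to BCL2L1 was 0.539, 1.25 and 1.21. The ratio of PMAIP1 to MCL1, a pair whose proteins bind each other, was 0.0808, 0.0799 and 0.0716. That of BCL2L11 to BCL2L1 was 0.178, 0.137 and 0.1996.

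The promoter windows of 3 members are shown. BBC3 and BCL2L1 had the largest changes at 16 h against 0 h, one upward and one downward. BCL2 is the other member in which TGTGGT, a form of the RUNX motif, was found. They come from RefSeq (GRCh38.p14), run 5′ to 3′ on the gene's strand and reach from 250 bases before to 50 bases after a transcription start. Of the 10 members, 8 matched, with 13 windows in all, and BIK and MCL1 had no entry. Capitals mark TGTGGT read on either strand, and other forms of the RUNX motif are not marked.
BBC3 chr19:47232618-47232917: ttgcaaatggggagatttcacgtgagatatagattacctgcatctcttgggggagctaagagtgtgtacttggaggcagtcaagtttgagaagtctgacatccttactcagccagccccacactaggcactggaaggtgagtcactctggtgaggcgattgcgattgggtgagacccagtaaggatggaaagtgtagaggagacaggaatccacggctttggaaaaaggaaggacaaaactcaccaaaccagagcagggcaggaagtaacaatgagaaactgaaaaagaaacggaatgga
BCL2L1 chr20:31723914-31724213: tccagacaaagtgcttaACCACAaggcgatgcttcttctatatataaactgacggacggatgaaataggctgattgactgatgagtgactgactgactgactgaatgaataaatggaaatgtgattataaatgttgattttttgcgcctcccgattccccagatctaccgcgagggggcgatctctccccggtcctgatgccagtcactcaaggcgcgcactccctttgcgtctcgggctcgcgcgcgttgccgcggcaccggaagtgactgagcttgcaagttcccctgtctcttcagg
BCL2 chr18:63319720-63320019: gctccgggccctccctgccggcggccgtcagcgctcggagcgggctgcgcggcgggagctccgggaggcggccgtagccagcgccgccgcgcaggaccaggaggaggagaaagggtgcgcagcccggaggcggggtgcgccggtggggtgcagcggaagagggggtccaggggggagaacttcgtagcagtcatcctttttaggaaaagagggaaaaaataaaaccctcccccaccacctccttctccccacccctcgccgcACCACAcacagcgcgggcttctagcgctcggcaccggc

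TGTGGT was in 2 of the 13 windows, 1 of BCL2L1 and that of BCL2, and in 13.1% of all 35116 windows searched. Windows of BID overlap each other, so the 13 are not all separate stretches. By gene, TGTGGT was in 2 of the 8 matched members, beside 15.6% of all genes. These counts are too small to read against these shares. Counted from the transcription start, TGTGGT began at -233 in BCL2L1 and at 12 in BCL2. BCL2L1 was lower at both times and BCL2 was near its starved level, and a link of these letters to either course was not tested. The window of BBC3 did not hold TGTGGT, which says only that these letters are not in this window. The RUNX site that the study deleted at ARF, GACCGCA, is another form, which a search for TGTGGT cannot find. Its reverse complement, TGCGGTC, is in the window of BAX. The windows were not searched for this form as a set.

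Genes were ranked by how near their pair of changes at 8 h and 16 h lay to that of a member, over 11356 genes with a symbol and FPKM of at least 1 and 3 libraries. For BCL2L1, which had the largest change at 16 h except with equal FPKM sums, where BBC3 had it, the 3 nearest were GATB, PHF11 and TCEAL1, at distances of 0.038, 0.041 and 0.045 log2 units. For BBC3, added after its values were seen, they were RHBDL1, CDKN1A and MLXIPL, at 0.066, 0.073 and 0.16. CDKN1A, the p21 inhibitor of cyclin-dependent kinases, was at FPKM 146, 68.5 and 247, with changes of -1.09 and 0.76 beside -1.12 and 0.69 for BBC3. Both were thus lower at 8 h and higher at 16 h than in starved cells, while PMAIP1 and BAX were not above the starved level at 16 h, with changes of -0.10 and -0.14. Both changes of each gene rest on the same starved library, and any error in that library is in all of them. With 3 libraries such nearness is a description only.

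Other genes of the mitochondrial pathway were taken from fixed lists. Of 13 other BCL2 family genes, 7 had FPKM of at least 1, and 0 of these passed 1 in either direction at 8 h or 16 h, with medians of -0.15 and 0.025. BNIP3, a mitochondrial BH3-like protein, was at FPKM 44.9, 51.1 and 52.6, and BAD, a BH3-only protein controlled by phosphorylation, was at 30.6, 27.7 and 34.4. At 8 h BNIP3L, a relative of BNIP3, was at -0.78 and BOK, a BAX-like gene, at 0.75, both outside the 5th to 95th percentile range of all genes. The BH3-only gene HRK and the pro-survival gene BCL2A1 were listed at 0, and BMF did not exceed 0.290. Of 17 genes of the executioner steps, which run from cytochrome c to the caspases and their inhibitors, 16 had FPKM of at least 1 and 0 passed 1 against 0 h. At 8 h 12 of these 16 were higher, with a median of 0.11, beside 50.6% of all genes. At 16 h against 0 h 10 of 16 were lower (median -0.052), beside 51.8% of all genes lower. With equal FPKM sums this median was 0.040, so its sign turned. From 8 h to 16 h 12 of 16 were lower (median -0.19), beside 51.7% of all genes lower. CYCS, cytochrome c, was at 140.0, 230 and 157 (changes of 0.71 and 0.16, the first above the 95th percentile), and VDAC1, a channel of the outer membrane, at 265, 347 and 275 (0.39 and 0.05).

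In the death receptor arm, 9 of 12 genes had FPKM of at least 1 and 0 passed 1 against 0 h. At 8 h 4 of these 9 were higher and 5 lower (median -0.081), and at 16 h 8 were higher and 1 lower (median 0.12), beside 48.2% of all genes higher at 16 h. From 8 h to 16 h CASP10, an initiator caspase, was higher by 1.02. TNFRSF1A, the main TNF receptor, was at FPKM 88.9, 107 and 96.6, and TNFRSF10B, a TRAIL receptor, was at 54.8, 47.8 and 60.7. Of 13 regulators of BH3-only transcription or of protein turnover, 12 had FPKM of at least 1, and against 0 h FOXO3 at 8 h was the 1 that passed 1. From 8 h to 16 h FOXO3 and MDM2, a ubiquitin ligase, were higher by 1.13 and 1.01. ATF4, a factor of the stress response, was at 324, 301 and 227 (changes of -0.11 and -0.51), and MYC was at 51.9, 69.2 and 52.7 (0.42 and 0.02).

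**Figure D3:**
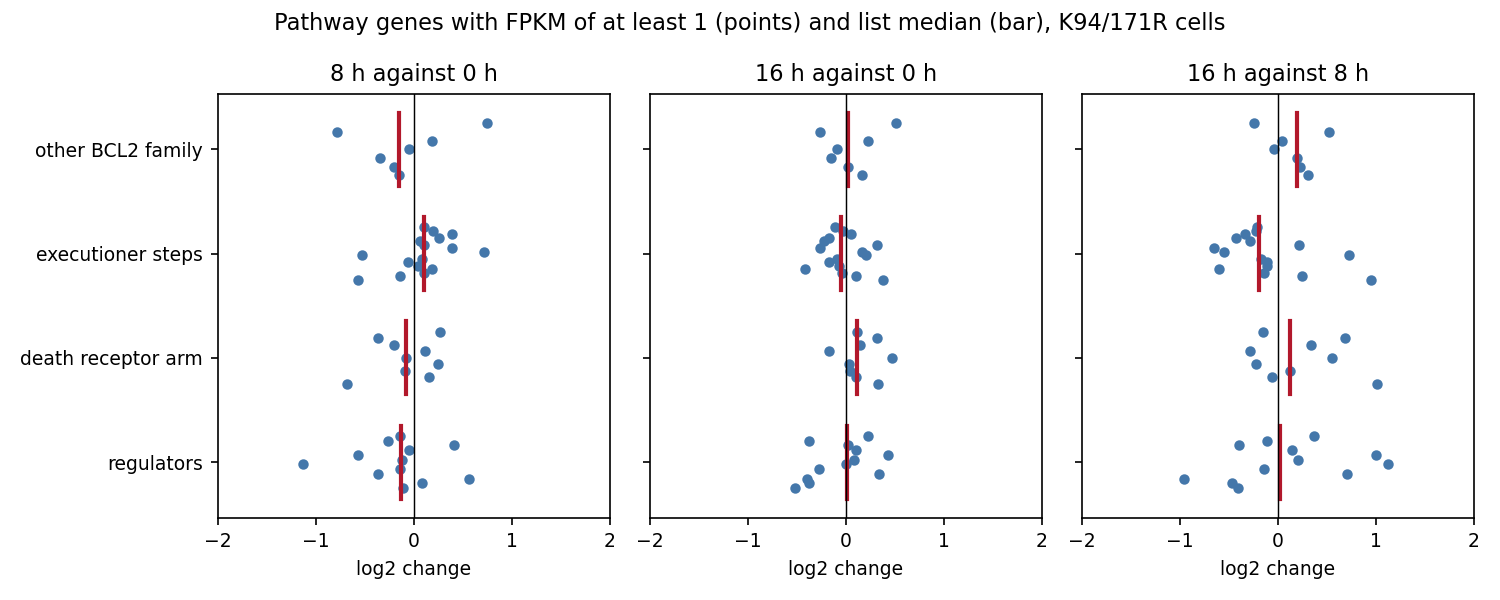
log2 change at 8 h and 16 h against 0 h and at 16 h against 8 h for genes of 4 lists with FPKM of at least 1 (points), with the list median as a bar, in K94/171R cells. The bars of all 4 lists stay within 0.2 of 0 in the 3 panels.

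The other lines, H460-vec without a fusion protein and H460-ERT2-RUNX3 with the wild-type fusion, are in a second table whose locus identifiers are not paired with symbols. Identifiers in a supplement of the study pair some genes, but the copy used here covers only part of chromosome 1. Through it, 5 of 73 listed genes and 0 of the 10 members could be paired, so the members were not compared between the lines. Of the 5, FASLG was listed at 0 and another stayed below FPKM 1 in all lines. SESN2, a stress-induced sestrin, was at FPKM 9.45, 7.16 and 11.3 in K94/171R cells, changes of -0.40 and 0.26. Its changes were 0.57 and 1.11 in H460-vec cells (FPKM 2.75, 4.11 and 6.01) and 3.08 and 4.12 with wild-type RUNX3 (FPKM 2.61, 22.4 and 46.1). MDM4, a relative of the ubiquitin ligase MDM2, was at FPKM 7.08, 6.84 and 7.60 in K94/171R cells, changes of -0.05 and 0.10. Its changes were 0.17 and 0.19 in H460-vec cells, where FPKM was 5.58, 6.29 and 6.36. They were 0.62 and 1.72 in H460-ERT2-RUNX3 cells, where FPKM was 5.98, 9.21 and 19.8. DFFB, the nuclease that cuts DNA in apoptosis, was at FPKM 2.57, 2.78 and 3.23 in K94/171R cells. Its FPKM was 2.83, 3.12 and 2.87 in the vector line, and 2.83, 2.04 and 0.990 with wild-type RUNX3. The tables were made separately, so levels should not be compared between them, and the differences between lines were not tested.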

How the data were processed

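RNA-seq was analysed for the 3 libraries of H460-ERT2-RUNX3-K94/171R cells at 0, 8 and 16 h, of 9 libraries of 3 cell lines in all. The library kit was TruSeq Stranded mRNA. After trimming by Cutadapt, the authors aligned reads to hg19 using STAR (2.5.0 in the submitters' processing notes), ran Cuffdiff (2.2.1) of Cufflinks and deposited FPKM per gene in 2 tables. Annotation and strand setting are not given in the sources used here. Ensembl identifiers without version were matched to symbols (19494 of 19869 genes). Changes were computed with Python 3.11.15, pandas and numpy as log2((FPKM + 0.05)/(FPKM at the earlier time + 0.05)) and counted at thresholds of 1 and 2, and the computation was checked on simulated data. Gene coordinates are from GENCODE 44 lifted to GRCh37 (hg19), and promoter windows from RefSeq on GRCh38.p14.

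With 1 library per condition no test was possible. The members and lists were chosen with earlier results of these data known. All members are named, as are, of the lists reported, genes past 1 against 0 h with FPKM of at least 1 and the 2 highest genes of each list; other genes named were chosen after their values were seen or belong to the check of markers. Results that need 1 of the listed items are not reported here. A search for BH3 motifs in proteins was planned but not run. Alternatives were pseudocounts of 0.01 and 1, equal FPKM sums, centring on the median gene, an FPKM minimum of 1 and other weightings of the pro-death to pro-survival ratio.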

Additional observations from a re-analysis of the deposited data

Results flagged for a closer look

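DFFB is flagged because its change had one sign at both times in the K94/171R and the vector line and the opposite sign at both times in H460-ERT2-RUNX3 cells. At 16 h against 0 h the log2 change of DFFB was 0.32 in K94/171R cells, 0.019 in H460-vec cells and -1.47 in H460-ERT2-RUNX3 cells. Each value is 1 library against 1, the lines are in separately made tables, and the difference was not tested.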

How the results depend on the processing

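Each line and time is 1 library, so no library could be left out. No paired analysis was possible because no group has a second replicate. With equal FPKM sums, centring on the median gene and a pseudocount of 0.01, every change of a member and every class or list median stayed within 0.2 log2 units, and the counts of members past 1 or 2 did not change, but with equal FPKM sums BBC3 (0.78) and not BCL2L1 (-0.65) had the largest change at 16 h. With a pseudocount of 1, BBC3 at 8 h was -0.81 and BCL2L11 -0.58, so the number of members lower by at least 1 at 8 h went from 1 to 0. By geometric means, the log2 change of the pro-death to pro-survival ratio was 0.019 at 8 h and 0.31 at 16 h. BIK entered these means as 0.05. For the ratio of sums the log2 change was 0.64 and 0.71 at these times without BAX and MCL1. It was 0.33 and 0.26 without BAX and 0.089 and 0.40 without MCL1, which were added after seeing the data. An FPKM minimum of 1 lowered the shares of all genes past 1 or 2 by more than 1.5 times and left the members' counts as they were. Because the number of reads is unknown, no counting error can be given for any member.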

Other observations

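Of the 11390 genes with FPKM of at least 1, 25 (0.219%) were at least 1 lower at 8 h and at least 0.5 higher at 16 h than at 0 h on the log2 scale, and BBC3 and CDKN1A were among them. This pattern was chosen after the course of BBC3 was seen, and its genes share the 8 h and 0 h libraries. The transcription factor MXD3, of the MYC and MAX network, was at FPKM 10.1, 4.97 and 14.5, and it and CDKN1A were the genes of this set above FPKM 10 in a library. The cholesterol efflux transporters ABCA1 and ABCG1 were also in it, at FPKM 0.603, 0.205 and 2.19 and at 0.532, 0.0878 and 2.36; the number of reads behind these values is unknown.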
